A study of Mus musculus with 48 samples.

Results

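Autophagy transcripts were examined in hippocampal microglia of mouse pups reared under early-life stress or control conditions. The 7 genes were Ulk1, Becn1, Atg5, Atg12, Map1lc3b, Gabarapl1 and Sqstm1, chosen by name for their parts in autophagy initiation, conjugation and cargo selection. All 7 were found among the 478 genes of each of the authors' 3 deposited comparison tables. The 3 rearing groups were UPS, LB and CTL, with 16 animals in each and 8 of each sex. As background, UPS stands for unpredictable postnatal stress and LB for limited bedding and nesting material, while CTL is the control rearing of the labels. All animals were of the strain given in the labels as Balbc/Byj and were 17 days old, and no group carried a transgene or a drug in the labels. About 60000 cells per animal were purified as microglia by Percoll gradient and flow cytometry, and their lysate was counted on the nCounter glial panel, which reads RNA with barcoded probes and no amplification. The sexes were pooled in each comparison.

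Autophagy is the route by which a cell encloses its own cytoplasm, damaged organelles or protein aggregates in a double membrane and delivers them to the lysosome. A kinase complex starts it, a lipid kinase complex marks the growing membrane, ubiquitin-like conjugation reactions attach small proteins of the Atg8 family to that membrane, and cargo receptors bind both the cargo and those proteins. In macrophages, microglia among them, part of the conjugation machinery is also used to attach Atg8 proteins to phagosomes. The measurements here are transcript levels. Protein, Atg8 lipidation and flux through the pathway were not measured in these tables.

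The promoter window of Atg5 is shown because Atg5 had the smallest p-value of the 7 members. It is the sequence from 250 bases before to 50 bases after an annotated start, chr10:44268089-44268388 on the plus strand of GRCm38.p6, from RefSeq. The capitals mark an E-box, CACGTG, at bases 237 to 242 of the window and a cyclic AMP response element, TGACGTCA, at bases 250 to 257. Both motifs read the same on either strand and they do not overlap.
Atg5: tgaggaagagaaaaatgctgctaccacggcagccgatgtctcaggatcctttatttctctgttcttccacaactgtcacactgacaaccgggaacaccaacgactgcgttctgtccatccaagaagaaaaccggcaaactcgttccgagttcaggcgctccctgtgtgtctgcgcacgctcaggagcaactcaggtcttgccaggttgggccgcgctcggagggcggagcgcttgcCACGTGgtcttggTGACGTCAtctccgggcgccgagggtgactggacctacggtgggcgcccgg
The E-box is the core of the element bound by TFEB, a transcription factor of lysosomal and autophagy genes. It was found in 7.15% of all 32851 promoter windows of the RefSeq table and in 8.68% of the 461 windows of panel genes. The cyclic AMP response element was found in 1.79% and 4.12% of those windows. Windows were examined for 5 of the 7 members (Ulk1, Atg5, Map1lc3b, Gabarapl1 and Sqstm1). The Atg5 window was the single one of these 5 with either motif. Becn1 had no window in the RefSeq table, and Atg12 was left out of this member search. Whether either motif lies near the starts of Becn1 and Atg12 was therefore not tested. A motif match describes these letters and does not show which factor, if any, binds them. The tables hold no measurement at the promoter.

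No autophagy transcript passed an adjusted p of 0.05 in any pair of rearing groups. The differences were small, with no log2 ratio above 0.11 in size in the authors' deposited tables, and Atg5 alone came near the threshold, in both comparisons that involve UPS. The values are the log2 ratios, p-values and Benjamini-Hochberg adjusted p-values of the authors' deposited tables, in which the adjustment runs over all 478 genes. The numerator of the ratios is not named, so signs are given as deposited. Each table is named with CTL first, or LB first where it is set against UPS. Were the group named last the numerator, positive values would stand for more RNA in UPS (in LB, for LB and CTL), and otherwise all signs would be reversed in common. Standard errors and 95% intervals were recovered from each ratio and its p, as no value per animal was used here.

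Across the panel, 4.81% of the 478 genes passed between UPS and CTL (23 genes), 0.00% between LB and CTL and 6.28% between UPS and LB (30 genes). Of the 7 members 0 passed in each of these comparisons by the authors' nSolver fits. At an unadjusted p below 0.05 there was 1 member between UPS and CTL, where 16.3% of all genes had such a p. There were 0 between LB and CTL (11.7% of all genes) and 1 between UPS and LB (18.8%). With 7 members, counts of 0 and 1 are near the share of the panel. Among the members the median log2 ratio was 0.036 between UPS and CTL, against -0.0024 over all genes. It was 0.015 between LB and CTL, against 0.0035 over all genes, and 0.011 between UPS and LB, against -0.010. In each comparison 4 members had a positive and 3 a negative ratio. The positive ones were Ulk1, Becn1, Atg12 and Map1lc3b in both comparisons with CTL, and between UPS and LB Gabarapl1 stood in place of Map1lc3b. The comparisons share animals: the tables with UPS share its 16 libraries, and those with CTL share the control libraries.

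**Figure D1:**
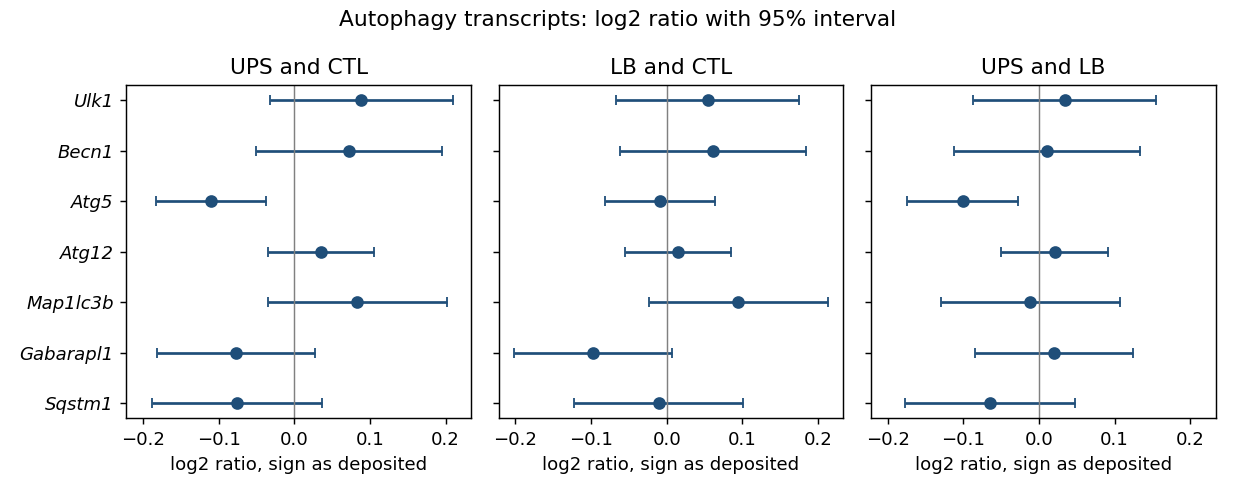
Log2 ratio (x axis, sign as deposited) of each of the 7 autophagy transcripts (rows) between UPS and CTL, LB and CTL, and UPS and LB. Points are the authors' deposited values and bars the recovered 95% intervals, of which 2 of 21 lie clear of 0, both those of Atg5 in the comparisons with UPS.

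Initiation is represented by Ulk1 and Becn1. Ulk1 is the kinase that starts autophagosome formation, held back by mTORC1 and activated by AMPK. The authors' deposited tables gave it a log2 ratio of 0.088 between UPS and CTL (p = 0.148, adjusted p = 0.455), 0.055 between LB and CTL (adjusted p = 0.78) and 0.034 between UPS and LB (adjusted p = 0.797). The recovered interval for UPS and CTL ran from 0.978-fold to 1.16-fold. Becn1 is a subunit of the lipid kinase complex that marks the membrane for growth. Its log2 ratios in the authors' deposited tables were 0.072 between UPS and CTL (p = 0.243, adjusted p = 0.573), 0.062 between LB and CTL and 0.011 between UPS and LB. Both initiation genes thus had positive ratios in all 3 tables, and every interval included 0.

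Conjugation is represented by Atg5 and Atg12, whose proteins are joined covalently and together direct the lipidation of Atg8 proteins. Atg5 had a log2 ratio of -0.11 between UPS and CTL in the authors' deposited table, or 0.927-fold (p = 0.00405, adjusted p = 0.0646). The recovered 95% interval ran from -0.18 to -0.037 on the log2 scale, or from 0.881-fold to 0.975-fold. Between UPS and LB the authors' deposited table gave Atg5 a log2 ratio of -0.10, or 0.932-fold (p = 0.00762, adjusted p = 0.0809), with a recovered interval from -0.17 to -0.028. Between LB and CTL its ratio in the authors' deposited table was -0.0086 (p = 0.814, adjusted p = 0.946), and the recovered interval from 0.945-fold to 1.05-fold contains values of either sign. Neither comparison with UPS passed at the adjusted threshold of 0.05. The largest adjusted p that did pass was 0.0461 between UPS and CTL and 0.0338 between UPS and LB. At an adjusted p below 0.1, Atg5 was the 1 member counted in each, where 7.11% of all genes passed between UPS and CTL and 10.0% between UPS and LB. In the order of p-values, 6.07% of all genes lay ahead of Atg5 between UPS and CTL and 9.21% between UPS and LB.

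Atg12 had ratios of the opposite sign to those of its conjugation partner in all 3 tables, none of which passed. The authors' deposited tables gave it log2 ratios of 0.036 between UPS and CTL (p = 0.315, adjusted p = 0.656), 0.015 between LB and CTL (adjusted p = 0.902) and 0.021 between UPS and LB (adjusted p = 0.784). Its recovered interval for UPS and CTL ran from 0.976-fold to 1.08-fold. On the log2 scale its half-width was 0.070, against 0.073 for Atg5. The difference between these members was not tested, since the covariance of their levels is not known from the tables.

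**Figure D2:**
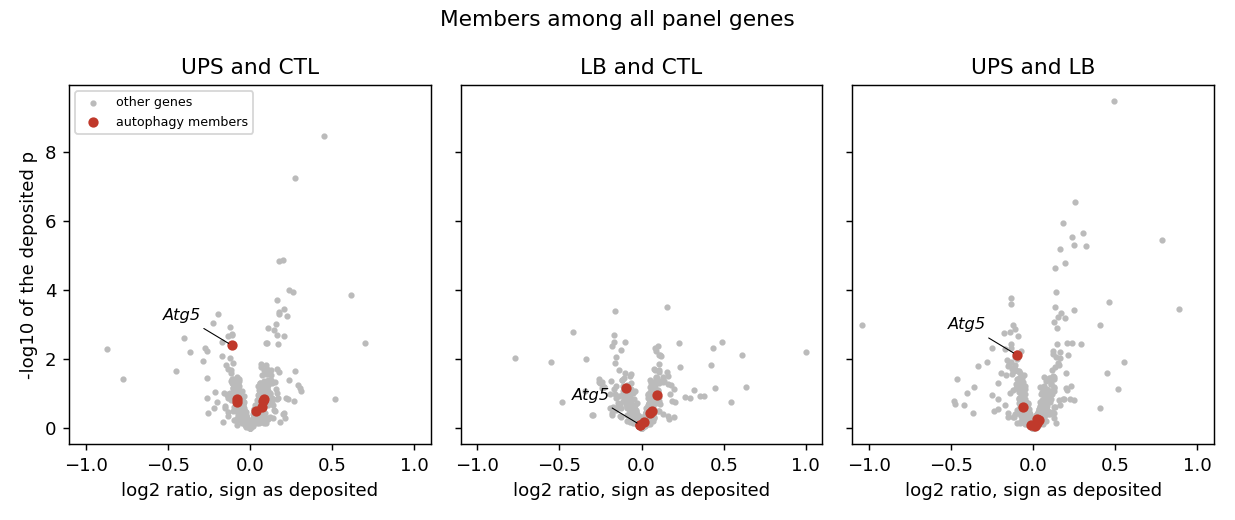
Negative log10 of the deposited p (y axis) against the log2 ratio (x axis, sign as deposited) for the 478 panel genes in the 3 comparisons, with the 7 autophagy members in red. Atg5 stands apart from the other members in the comparisons of UPS with CTL and with LB, and lies near the origin between LB and CTL.

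The Atg8 family, the small proteins attached to the membrane, is represented by Map1lc3b and Gabarapl1. Map1lc3b encodes LC3B, the most used marker of autophagosomes. The authors' deposited tables listed it at log2 ratios of 0.083 between UPS and CTL (p = 0.163, adjusted p = 0.481), 0.095 between LB and CTL (p = 0.114, adjusted p = 0.499) and -0.011 between UPS and LB (p = 0.846). Gabarapl1, a member of the GABARAP branch of the family, had negative ratios against CTL instead. In the authors' deposited tables these were -0.077 between UPS and CTL (p = 0.146, adjusted p = 0.452) and -0.097 between LB and CTL (p = 0.068, adjusted p = 0.446), beside 0.020 between UPS and LB (p = 0.698). The 2 family members therefore carried opposite signs in every table and passed in none. For LB and CTL the recovered intervals ran from 0.984-fold to 1.16-fold for Map1lc3b and from 0.870-fold to 1.01-fold for Gabarapl1.

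Cargo selection is represented by Sqstm1, which encodes p62, a receptor that binds ubiquitinated cargo and Atg8 proteins and is itself degraded by autophagy. Its log2 ratios in the authors' deposited tables were -0.076 between UPS and CTL (p = 0.181, adjusted p = 0.504), -0.011 between LB and CTL (p = 0.849) and -0.065 between UPS and LB (p = 0.25, adjusted p = 0.567). The signs are those of Atg5 in all 3 tables. The recovered intervals, from 0.878-fold to 1.03-fold between UPS and CTL, included no change.

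All 3 groups were then compared in a common test. With equal groups that share a standard error, the F statistic of a rearing effect equals the mean of the 3 squared t statistics, and it was recovered in this way for every gene and adjusted over the 478. It passed at an adjusted p of 0.05 for 33 genes, or 6.90% of the panel, and for 0 of the 7 members. At an unadjusted p below 0.05 there was 1 member, Atg5, against 19.7% of all genes. Atg5 had F = 5.72 (p = 0.00635, adjusted p = 0.0809) and was number 37 in the order of p-values. Gabarapl1 followed among the members with F = 1.95 (adjusted p = 0.427) and Map1lc3b with F = 1.55 (adjusted p = 0.475), while the remaining 4 had an F between 0.522 (Atg12) and 1.11 (Ulk1).

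The order of the group levels is known up to its direction, so the group that lies in the middle holds under either reading of the sign. LB lay between UPS and CTL for 5 members (Ulk1, Becn1, Atg5, Atg12 and Sqstm1), and UPS lay between LB and CTL for 2 (Map1lc3b and Gabarapl1). For Atg5 the gap from UPS to LB was 0.10 and that from LB to CTL 0.0086 on the log2 scale, beside a 95% half-width of 0.073 for a difference of 2 groups. Sqstm1 had the same arrangement with gaps of 0.065 and 0.011, and both were inside its half-width of 0.11. For Map1lc3b and Gabarapl1 the stress groups lay next to each other, 0.011 and 0.020 apart, with CTL at an end. Apart from the place of UPS for Atg5, no neighbours in any of the 7 orders differed by more than the half-width, and no pair passed after adjustment.

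**Figure D3:**
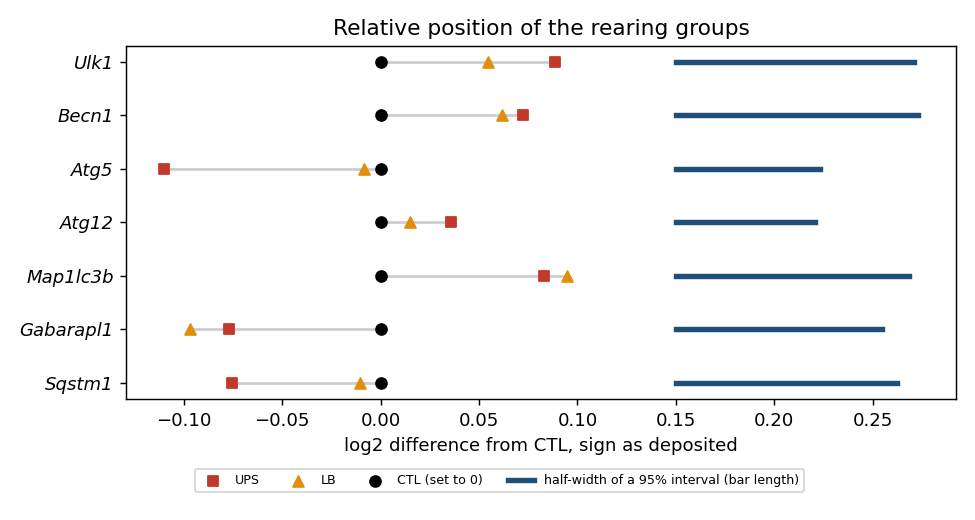
Position of UPS, LB and CTL for each autophagy transcript on the log2 scale (x axis, CTL set to 0, sign as deposited), with bars at the right whose length is the half-width of a 95% interval for a difference of 2 groups. The distance of UPS from LB and CTL for Atg5, 0.10 and 0.11, exceeds its bar length of 0.073, while all other distances are shorter than their bars.

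The precision of the tables bounds what could have been seen. The recovered standard errors of the members ran from 0.035 (Atg12) to 0.061 (Becn1) with a median of 0.056 on the log2 scale, against a median of 0.050 over all genes. The 21 intervals of the members together reached from 0.870-fold to 1.16-fold, so larger differences lay outside every one of them. The intervals, and the p-values and F tests they share their errors with, take all animals as independent. The labels' protocols give 4 to 5 litters for each set of 8 animals. Any likeness of littermates would widen the true intervals and raise the true p-values, also those of the panel counts. In bulk lysates fewer cells of a type and less RNA per cell cannot be told apart.

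Few genes of the further pathway lists were on the panel. The lists were not complete, as the related genes C9orf72, Lamtor3 and Scoc were measured but not listed. Between UPS and CTL their log2 ratios in the authors' deposited table were -0.015 (p = 0.68), -0.021 (p = 0.517) and 0.11 (p = 0.0198). Between UPS and LB these were 0.0093 (p = 0.802), 0.0068 (p = 0.835) and 0.095 (p = 0.035), and none passed. Of 37 other listed core autophagy genes, 1 was measured, Atg2b, which moves lipids to the growing membrane. Its log2 ratios in the authors' deposited tables were 0.0017 between UPS and CTL, -0.045 between LB and CTL and 0.047 between UPS and LB, and none passed. Of 20 other genes of cargo recognition and mitophagy, 3 were measured and 0 passed in any table or had an unadjusted p below 0.05. These were Tbk1, a kinase of cargo receptors (-0.019 between UPS and CTL in the authors' deposited table), and the ubiquitin-binding shuttle genes Ubqln1 (0.0020) and Ubqln2 (-0.051).

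Upstream of Ulk1, 5 of 30 listed genes were measured and 0 passed after adjustment in any table. Mtor, the kinase of the complex that restrains Ulk1, had log2 ratios in the authors' deposited tables of 0.11 between UPS and CTL (p = 0.0274, adjusted p = 0.238), -0.0060 between LB and CTL (p = 0.903) and 0.12 between UPS and LB (p = 0.0205, adjusted p = 0.153). The genes of the AMPK beta subunits, which hold the energy-sensing kinase complex together, differed in sign. In the authors' deposited tables Prkab1 was at 0.086 between UPS and CTL (p = 0.0543) and at 0.12 between LB and CTL (p = 0.0085, adjusted p = 0.209). Prkab2 was at -0.15 between UPS and CTL (p = 0.233) and at -0.34 between LB and CTL (p = 0.0102, adjusted p = 0.222) in the authors' deposited tables. Prkag1, the gene of an AMPK gamma subunit, is named after its values were seen to complete the count of unadjusted p-values below 0.05, with -0.074 between UPS and LB in the authors' deposited table (p = 0.0446, adjusted p = 0.245). At that unadjusted level the upstream genes numbered 1 between UPS and CTL, 2 between LB and CTL and 2 between UPS and LB, out of 5, beside 16.3%, 11.7% and 18.8% of all genes in that order.

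The panel genes nearest to Atg5 over the 2 free log2 ratios were Cul1, a ubiquitin ligase scaffold (distance 0.011), Kcnk13, a microglial potassium channel (0.014), and Tomm70a, a mitochondrial import receptor (0.014). In the authors' deposited table for UPS and CTL their log2 ratios were -0.10 for Cul1 (adjusted p = 0.294), -0.11 for Kcnk13 (adjusted p = 0.0461) and -0.12 for Tomm70a (adjusted p = 0.0361). The recovered standard error was 0.036 for Atg5, against 0.048 for Cul1, 0.032 for Kcnk13 and 0.035 for Tomm70a. With 3 group levels per gene such a likeness is a description and carries no test.

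All 10 listed microglial markers were on the panel, but the tables hold ratios and no levels, so the purity of the cells could not be read from them. Of these 10, Tmem119 passed between UPS and LB, with a log2 ratio of 0.46 in the authors' deposited table (adjusted p = 0.0076), and 0 passed in the other comparisons. Between UPS and CTL the authors' deposited table gave Tmem119 a log2 ratio of 0.27 (p = 0.022, not past the adjusted threshold). Of 38 listed markers of other cell classes 10 were measured, and 2 of these passed between UPS and CTL. They were Stab1, the 1 measured of 6 listed for border macrophages (0.21 in the authors' deposited table), and Slc1a3, listed for astrocytes (0.21). The same 2 passed between UPS and LB, with 0.20 and 0.25 in the authors' deposited table, and 0 of the 10 passed between LB and CTL. Over all genes 4.81% passed between UPS and CTL, 6.28% between UPS and LB and 0.00% between LB and CTL. At an unadjusted p below 0.05 the markers of other cells numbered 3 of 10 between UPS and CTL, 5 between UPS and LB and 1 between LB and CTL, beside 16.3%, 18.8% and 11.7% of all genes. The ratios of Stab1, Slc1a3 and Tmem119 in the comparisons with UPS carried the opposite sign to those of Atg5. Klrd1, the 1 measured of 5 listed NK and T cell markers, carried the sign of Atg5. In the authors' deposited tables Klrd1 was at -0.77 between UPS and CTL (p = 0.0388, adjusted p = 0.294) and at -0.47 between UPS and LB (p = 0.199). Its recovered standard error was 0.36. The microglial marker Aif1 carried that sign too, at -0.063 (p = 0.0382, adjusted p = 0.294) and -0.056 (p = 0.0632). Neither passed after adjustment. Of the markers of other cells at an unadjusted p below 0.05, all 5 between UPS and LB were positive, opposite to Atg5. Between UPS and CTL 2 of the 3 were positive. Of the 10 microglial markers 5 were negative between UPS and CTL and 6 between UPS and LB. Of the 10 other markers these counts were 5 and 2. Whether the RNA of a listed marker came from the cells it is listed for or from microglia cannot be told from bulk lysates. The part of these markers' cells in the Atg5 ratio was not tested.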

How the data were processed

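RNA was counted in 48 libraries run in 4 batches of 12, each with 2 libraries of every rearing group and sex. Per the file headers, each of the 3 deposited tables lists 478 genes with the log2 fold change, its linear ratio, the p-value and that p after Benjamini-Hochberg adjustment. Per the series text the authors kept genes above 20 counts and compared pairs in nSolver with batch as a covariate. How they normalized the counts, and with which software version, is not given in the sources used here. No value per animal was used, so depth is unknown and no animal could be left out.

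No model was refitted. The p-values were adjusted again over each table (threshold 0.05). Standard errors were recovered with a t distribution of 42 residual degrees of freedom, which gave the least median mismatch between the tables of a gene (0.281%, against 0.287% to 0.301% for other models of all libraries and 0.714% or more for models of 2 groups). The F statistic had 2 and 42 degrees of freedom. The recovery of standard errors and F was tested on simulated data drawn from the same rearing and batch model with independent animals. That checks the arithmetic and cannot show whether the model holds for these animals or their litters. Tools were Python 3.11.15, SciPy 1.17.1 and pandas 2.3.3. Of 478 symbols, 476 matched the RefSeq table of GRCm38.p6.

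The members and lists were chosen with earlier results of these data known. Genes named by rule besides the members were, per pathway list, those past the threshold and up to 3 with the smallest p, and the 3 nearest to the member with the smallest p. Of the cell type markers, those past the threshold were named. Prkag1, C9orf72, Lamtor3, Scoc, Klrd1 and Aif1 were named outside these rules, with their values known. Alternatives changed the family of the adjustment, the centring, the threshold and the error distribution.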

Additional observations from a re-analysis of the deposited data

How the results depend on the processing

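The counts of members past the threshold stayed at 0 in each pair of groups when the 3 tables were adjusted together, with the deposited adjusted p, and with the ratios centred on each table's median. A threshold of 0.1 gave 1 member, Atg5, between UPS and CTL (where 7.11% of all genes passed) and 1, again Atg5, between UPS and LB (10.0%), and 0 between LB and CTL. The adjusted p of Atg5 between UPS and CTL was 0.0796 with the tables adjusted together and 0.0775 after centring, and between UPS and LB it was 0.114 and 0.142. Its F test had an adjusted p between 0.0745 (normal and chi-square in place of t and F) and 0.0810 (41 residual degrees of freedom). With these, or with 44 residual degrees of freedom, 0 members passed. The same mean of squared t statistics after centring gave Atg5 an adjusted p of 0.110, and 0 members passed. As each table was centred on its own median, the 3 centred ratios of a gene no longer add up. That mean is therefore not an exact F statistic. After centring, 21 of 21 log2 ratios of the members kept their sign and their side of the threshold, and 2 of 21 intervals excluded 0, also with the normal distribution. Over all genes, the calls between LB and CTL were 3 with the tables adjusted together and 0 otherwise. No paired analysis was possible because the tables hold comparisons and no column per animal, and for the same reason no replicate could be left out. The depth of the libraries is unknown, so its part in the precision was not tested.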
